A study of Drosophila melanogaster with 6 samples.

Results

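The genes described here encode proteins that hold RNA polymerase II just downstream of the start site, release it, or bind promoters. They are M1BP, Trl, Dref, BEAF-32, TH1, Nelf-E, Spt5, Cdk9 and CycT. Each was found by its symbol in the count tables, where M1BP stands under its older symbol CG9797, and all 9 were present among 14770 genes and passed the filter on low counts that left 9375 genes to be tested. None of the 9 overlaps another gene of the tables.

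Polyadenylated RNA of Drosophila melanogaster was sequenced in 6 libraries. Of these, 4 came from S2-DRSC cells, a late-embryonic line that resembles blood cells (S2, genotype given as wild type), and 2 from S2-DRSC-HA::AbdA cells, the same line stably transfected with HA-tagged AbdA (S2-AbdA), a Hox transcription factor of the abdomen. All of the cells, transfected or not, received copper sulphate at 10 µM over the last 24 h. No line transfected without AbdA is listed, so effects of AbdA and of stable transfection cannot be told apart. The sources used here state neither the transgene's promoter nor whether the line is 1 clone. The labels tie replicates 1 and 2 of both groups, but not S2 replicates 3 and 4, to the authors' table of changed genes. S2-AbdA was therefore set against each pair of S2 libraries separately, and the S2 pairs against each other.

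In many animal genes, RNA polymerase II stops shortly after it starts. The negative elongation factor (NELF) and DSIF hold it there, and P-TEFb, a kinase made of Cdk9 and Cyclin T, releases it by phosphorylating NELF, DSIF and the polymerase. In Drosophila, promoters with paused polymerase are often bound by GAGA factor, the product of Trl, or by M1BP, a zinc-finger protein that recognises the core promoter element Motif 1, while DREF and BEAF-32 bind related sequences at many housekeeping promoters. The comparison asks whether the genes of this machinery are themselves expressed at another level in cells that carry AbdA.

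Libraries held 34233132 to 69858688 counts. The abd-A gene was at 17290 and 10910 CPM (counts scaled to a common library total) in S2-AbdA, against 29.1 and 52.7 in S2 replicates 1 and 2 and 0 and 0.0429 in S2 replicates 3 and 4, so the S2 pairs differed in the transfected gene itself. All 9 plasmatocyte marker genes looked at reached a mean of 1 CPM in S2 replicates 1 and 2, 5 did so in S2 replicates 3 and 4 and 8 in S2-AbdA, while 0 of 4 fat body markers did so in any of them. The summed CPM of the plasmatocyte markers was 3642 to 4208, 876 to 2985 and 2704 to 3048 in these sets, most of it from vkg, a collagen gene, and the other 8 summed to 832.5 to 1129, 199.5 to 643 and 214.5 to 576. Of these eater was at 84.9 and 66.1 CPM in S2 replicates 1 and 2, at 1.07 and 0.744 in S2 replicates 3 and 4 and at 2.3 and 9.6 in S2-AbdA. Hml was at 201.9 and 135.4, 24.8 and 51.05, and 14.9 and 167.7 in the same order. For Hml, S2-AbdA replicate 2 thus lay within S2 replicates 1 and 2. The 4 crystal cell markers summed to 15.1 and 90.2 CPM in S2 replicates 1 and 2, to 1.57 and 2.33 in replicates 3 and 4 and to 0.907 and 1.81 in S2-AbdA, each as the lower and the higher library. The 3 germ line markers, nearly all of it aub, summed to 49.0 and 52.8, 2.25 and 3.2, and 5.63 and 8.57 in the same order. Lamellocyte, neuron, muscle and epithelium lists had 2 of 3, 2 of 4, 1 of 4 and 3 of 3 genes at a mean of 1 CPM in each set. The part of these markers in the results below was not tested. S2 replicates 3 and 4 also stood apart from each other: the median absolute log2 ratio between them over all tested genes was 0.712, against 0.212 for S2 replicates 1 and 2 and 0.302 for the S2-AbdA libraries. In bulk RNA, fewer cells of a type and less RNA per cell cannot be told apart. Separate cultures are not stated for the replicates, so the p-values reflect the spread of these samples alone, and that spread may be technical.

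Set against S2 replicates 1 and 2, none of the 9 genes rose or fell in S2-AbdA. A gene was called where edgeR's quasi-likelihood test gave it an adjusted p (Benjamini-Hochberg, over all tested genes) under 0.10, and 10.4% of tested genes were called in this comparison. None of the 9 had an unadjusted p under 0.05, where 1598 of the 9375 tested genes did. DESeq2 called 0 of the 9 too, and 1053 genes over the whole table. None of the 9 is among the 2122 genes of the authors' deposited table, where the count tables hold 14770. Their median log2 fold change was -0.03, that of all tested genes was -0.02, and the largest in size was 0.46, for TH1. The 95% intervals of the 9 fold changes reached from 0.433 to 2.41, so the data do not show that levels were equal. Levels below are CPM after TMM scaling of each library (a trimmed mean of log ratios), with the standard deviation (SD) over n = 2 libraries unless single libraries are given.

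**Figure D1:**
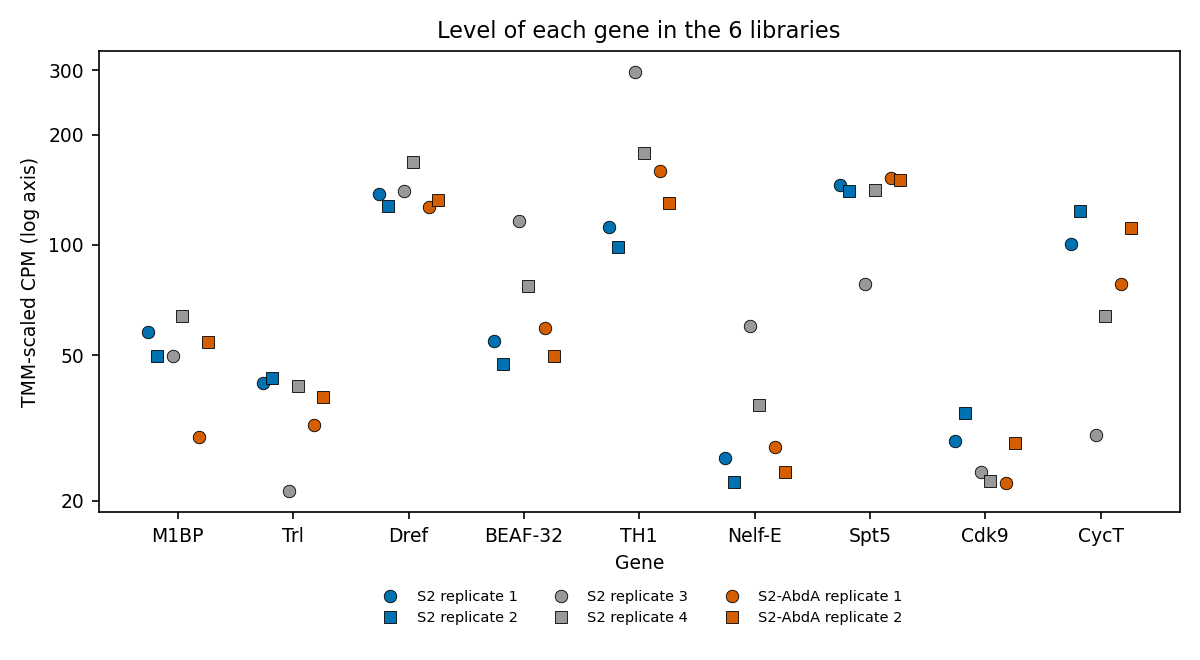
Level of each of the 9 genes in each library, as TMM-scaled CPM on a log axis. Each point is 1 library, coloured by set. For TH1, Nelf-E and BEAF-32 both grey points (S2 replicates 3 and 4) lie above all others, with replicate 3 the highest, and for CycT both lie below all others.

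Among the promoter-binding factors, M1BP (gene number 41042, dm3 chromosome 3R, 4555512 to 4557420) had 2107, 2306, 2021 and 4480 counts in S2 replicates 1 to 4 and 1556 and 2705 counts in S2-AbdA. In scaled CPM these were 58.0, 49.8, 49.8 and 64.1 in S2, and 29.8 and 54.2 in S2-AbdA. S2-AbdA replicate 1 was the lowest of the 6 libraries, while replicate 2 lay within the range of the S2 libraries. The fold change over S2 replicates 1 and 2 was 0.78 with a 95% interval of 0.433 to 1.40 (adjusted p = 0.850, edgeR), and over S2 replicates 3 and 4 it was 0.738 (0.41 to 1.33, adjusted p = 0.417). A doubling of M1BP lies outside both intervals, and a fall to a level of 0.5 lies inside both.

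The difference between the S2-AbdA libraries was larger for M1BP than for any of the other 8 genes. Their log2 ratio, replicate 2 over replicate 1, was 0.86, and 8.78% of all tested genes had a larger one in either direction. The next was CycT at 0.50 and the smallest was Spt5 at -0.02. Between S2 replicates 1 and 2 the ratio for M1BP was -0.22, which 48.7% of tested genes exceeded. Without S2-AbdA replicate 1 the log2 fold change of M1BP over S2 replicates 1 and 2 was 0.01, and without S2-AbdA replicate 2 it was -0.85, in place of -0.36. The S2-AbdA library with less M1BP held more abd-A RNA, 17290 against 10910 CPM, and with 2 libraries no relation between them could be tested.

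The tested genes whose profile over the 6 libraries lay nearest to that of M1BP, by root mean square distance of centred log2 levels, were ns1 (0.0918), CG3570, now Samtor (0.0933), and CG5986 (0.102), where the median over all tested genes was 0.621. Each shared the low value in S2-AbdA replicate 1. For ns1 the levels were 60.0 and 94.4 scaled CPM in S2-AbdA against 83.9 to 113.5 in S2, and for CG3570 they were 14.8 and 26.4 against 26.2 to 30.9. Of the other 8 genes Dref lay nearest to M1BP, at 0.282, and CycT farthest, at 0.755.

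Trl (2768981, 3L, 14743342 to 14751062), which encodes GAGA factor, stood at 41.9, 43.3, 21.2 and 41.1 scaled CPM in S2 replicates 1 to 4 and at 32.3 and 38.5 in S2-AbdA. Both S2-AbdA libraries lay below S2 replicates 1, 2 and 4 and above S2 replicate 3. The fold change was 0.831 over S2 replicates 1 and 2 (0.46 to 1.5, adjusted p = 0.919) and 1.14 over S2 replicates 3 and 4 (0.63 to 2.05, adjusted p = 0.745), both from edgeR. Against S2 replicate 3 as the only library of its pair, the log2 fold change was 0.72 (adjusted p = 0.0419), and against S2 replicate 4 it was -0.21 (adjusted p = 0.642). The result for Trl against that pair therefore rests on which S2 library is used.

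Dref (34328, 2L, 9964147 to 9967214) encodes the factor that binds the DNA replication-related element. It varied least of the 9 genes, at 137.5, 128.1, 140.4 and 168.4 scaled CPM in S2 and 126.6 and 132.7 in S2-AbdA. The highest of the 6 libraries was 1.33 times the lowest. The fold change over S2 replicates 1 and 2 was 0.976 (0.584 to 1.63, adjusted p = 0.997, edgeR), and both S2-AbdA libraries lay below both of S2 replicates 3 and 4.

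BEAF-32 (36645, 2R, 10658443 to 10660135) encodes a boundary element protein that shares binding sequences with DREF. Its levels were 54.6 and 47.4 scaled CPM in S2 replicates 1 and 2, 116.4 and 77.2 in S2 replicates 3 and 4, and 59.4 and 49.6 in S2-AbdA. S2-AbdA overlapped S2 replicates 1 and 2 (fold change 1.07, 0.618 to 1.85, adjusted p = 0.988, edgeR) and lay below both of S2 replicates 3 and 4. Its fold change over the latter pair, 0.563 (0.324 to 0.976), had an unadjusted p of 0.0421 and an adjusted p of 0.120, so it was not called.

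Of the NELF subunits, TH1 (32607, X, 16282853 to 16285443), the Drosophila NELF-D, was at 111.9 and 98.8 scaled CPM in S2 replicates 1 and 2, at 297.4 and 178.7 in S2 replicates 3 and 4, and at 159.6 and 130.0 in S2-AbdA. Both S2-AbdA libraries lay between the S2 pairs, above the one and below the other. The fold change was 1.37 over S2 replicates 1 and 2 (0.782 to 2.41, adjusted p = 0.732) and 0.608 over S2 replicates 3 and 4 (0.346 to 1.07, adjusted p = 0.179), both from edgeR.

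Nelf-E (38982, 3L, 8592718 to 8593979), the RNA-binding subunit of NELF, had the same order of S2 libraries: 26.1 and 22.5 scaled CPM in replicates 1 and 2 and 60.2 and 36.6 in replicates 3 and 4. S2-AbdA, at 28.0 and 24.0, overlapped the first pair (fold change 1.07, 0.61 to 1.87, adjusted p = 0.988, edgeR). Per kilobase of exon, the ratio of TH1 to Nelf-E was 2.29, 2.34, 2.64 and 2.61 in S2 replicates 1 to 4 and 3.04 and 2.89 in S2-AbdA. The highest of these ratios was 1.33 times the lowest, whereas TH1 alone ranged 3.01-fold and Nelf-E alone 2.68-fold, so the ratio varied less than either gene. Within-library ratios do not depend on how libraries are scaled, but they do depend on length effects. With the length offset the log2 differences between the S2 pairs were 1.21 for TH1 and 0.57 for Nelf-E, in place of 1.18 and 0.99.

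Spt5 (53442, 2R, 15324991 to 15329403) encodes the large subunit of DSIF. Its levels were 145.6, 140.1, 78.4 and 141.3 scaled CPM in S2 replicates 1 to 4 and 152.6 and 150.6 in S2-AbdA. S2 replicate 3 alone was low, the other S2 libraries were close to each other, and S2-AbdA lay above all 4. The fold change over S2 replicates 1 and 2 was 1.06 (0.60 to 1.88, adjusted p = 0.993, edgeR), so S2-AbdA stood above them by less than the test could separate. The ratio of TH1 to Spt5 per kilobase was 1.06 to 1.91 in 5 libraries and 5.72 in S2 replicate 3.

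Cdk9 (37586, 2R, 18523568 to 18525228), the kinase of P-TEFb, stood at 29.1, 34.9, 24.0 and 22.6 scaled CPM in S2 and at 22.3 and 28.8 in S2-AbdA. Both S2-AbdA libraries lay below S2 replicates 1 and 2, and they overlapped replicates 3 and 4. The fold change over the first pair was 0.80 (0.474 to 1.35, adjusted p = 0.847, edgeR).

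CycT (39961, 3L, 17544013 to 17550888), the cyclin partner of Cdk9, was the gene that varied most, at 100.5 and 123.6 scaled CPM in S2 replicates 1 and 2, 30.3 and 64.1 in S2 replicates 3 and 4, and 78.2 and 111.0 in S2-AbdA. S2-AbdA overlapped the first pair (fold change 0.844, 0.449 to 1.59, adjusted p = 0.937, edgeR) and lay above both libraries of the second. Over that second pair the fold change was 2.0 (1.06 to 3.79), with an unadjusted p of 0.0355 and an adjusted p of 0.107, and it passed the test with DESeq2 (adjusted p = 0.050). The ratio of CycT to Cdk9 per kilobase was 0.804 and 0.826 in S2 replicates 1 and 2, 0.661 and 0.294 in S2 replicates 4 and 3, and 0.816 and 0.897 in S2-AbdA. The ratio was thus lower in S2 replicates 3 and 4 than in the other libraries. CycT has 6342 bases of exon and Cdk9 1476, and the S2 pairs differed by exonic length, as described below. Their log2 differences between the S2 pairs, -1.25 and -0.46, became -0.92 and -0.73 with an offset for length, so most of the gap between them was lost.

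In 4 of the 9 genes the S2-AbdA libraries did not overlap S2 replicates 1 and 2, which was so for 54.7% of all tested genes. TH1 and Spt5 were above them, and Trl and Cdk9 below. Against S2 replicates 3 and 4, none of the 9 was called, where 31.8% of tested genes were. Unadjusted p lay under 0.05 for 3, CycT, Nelf-E and BEAF-32, where it did for 3499 of the 9375 tested genes. DESeq2 called 2 of these 3, CycT as higher and Nelf-E as lower in S2-AbdA, and 3261 genes over the whole table. Without S2 replicate 4, replicate 3 stood alone in its pair and was assumed to vary like the other libraries. Log2 fold changes in S2-AbdA were then 0.72 for Trl, 0.93 for Spt5 and 1.62 for CycT. They were -1.23 for Nelf-E, -1.06 for TH1 and -1.11 for BEAF-32, and -0.26 for M1BP, 0.07 for Cdk9 and -0.13 for Dref. Without S2 replicate 3 they were, in the same order, -0.21, 0.10, 0.56, -0.49, -0.30, -0.50, -0.61, 0.18 and -0.37.

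**Figure D2:**
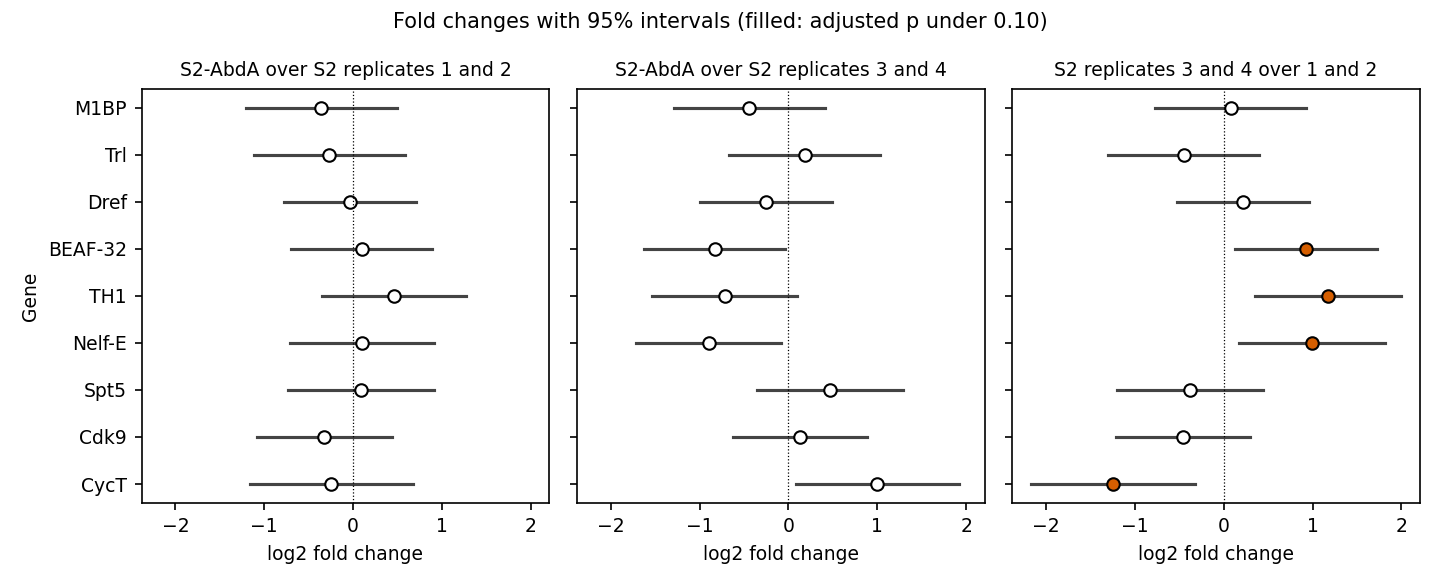
Log2 fold change of each gene with its 95% interval in the 3 comparisons, from 1 edgeR fit to all 6 libraries; filled points passed an adjusted p of 0.10. For S2-AbdA over S2 replicates 1 and 2 all 9 intervals include 0. The filled points, BEAF-32, TH1, Nelf-E and CycT, lie in the comparison between the S2 pairs.

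Between the S2 pairs, 4 of the 9 genes differed, where 37.0% of all tested genes did. Higher in replicates 3 and 4 were TH1 (fold 2.26, 1.28 to 4.0, adjusted p = 0.0439), Nelf-E (1.99, 1.13 to 3.51, adjusted p = 0.0724) and BEAF-32 (1.90, 1.09 to 3.30, adjusted p = 0.0826). CycT was lower (0.422, 0.222 to 0.801, adjusted p = 0.0535, all from edgeR). Over all genes 18.1% were called higher and 18.9% lower, so the share of these 9 genes that differed is near that of the whole table. All 4 calls were lost without S2 replicate 1 or without S2 replicate 2, which leaves the other alone in its pair. Those of Nelf-E and BEAF-32 were also lost without S2 replicate 3 (adjusted p = 0.155 and 0.124) and without either S2-AbdA library, and TH1 and CycT kept theirs there. On library size alone, which moves the median of all genes to -0.27, only CycT was called, and 760 genes were higher and 1738 lower in place of 1698 and 1772. With upper quartile scaling, which moves that median to -0.15, TH1 and CycT were called.

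Exonic length moved with the difference between the S2 pairs. The median log2 difference was 0.77 over the 1527 tested genes of up to 1000 bases, 0.39 over 3032 genes of 1000 to 2000, -0.25 over 2883 genes of 2000 to 4000 and -0.46 over 1875 longer ones. Of the genes that were higher, Nelf-E has 1227 bases of exon, BEAF-32 1919 and TH1 2297, and CycT, which was lower, has 6342, the longest of the 9. All 4 lay away from the median of their length class: TH1 (1.18), Nelf-E (0.99) and BEAF-32 (0.92) above it and CycT (-1.25) below it. Cdk9, at -0.46, also lay below that of its class, and Trl, with 6254 bases and a log2 difference of -0.45, lay at that of its own. With an offset for length fitted in each library, TH1 stayed at 1.21 (adjusted p = 0.0245) and BEAF-32 at 0.80 (0.0476), Nelf-E moved from 0.99 to 0.57 (0.089) and CycT from -1.25 to -0.92 (0.0342). Cdk9, with 1476 bases, moved from -0.46 to -0.73 and then passed the test (adjusted p = 0.0662, edgeR). The part of length in the differences beyond this offset was not tested.

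**Figure D3:**
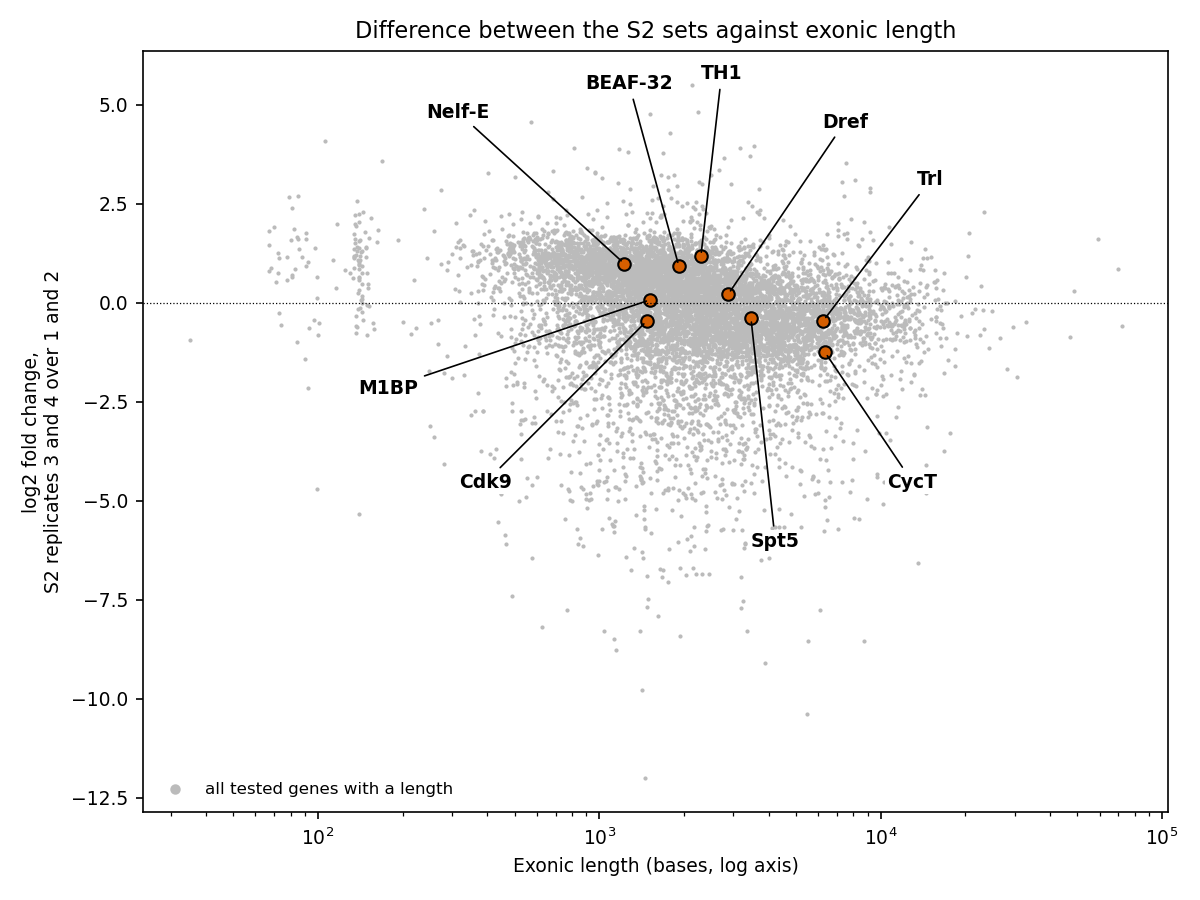
Log2 fold change of S2 replicates 3 and 4 over 1 and 2 against exonic length (log axis) for all tested genes with a length (grey) and the 9 genes (orange). The grey cloud falls from short to long genes, with medians of 0.77 up to 1000 bases and -0.46 above 4000, and TH1 lies above zero at 2297 bases while Cdk9 lies below it at 1476.

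Per kilobase of exon the highest of the 9 genes was 6.44 to 13.5 times the lowest in 5 libraries, and 38.2 times in S2 replicate 3. Over the 6 libraries, as mean ± SD of scaled CPM per kilobase (n = 6), TH1 was highest at 70.9 ± 31.5, followed by Dref at 48.4 ± 5.35, Spt5 at 39.0 ± 8.11, BEAF-32 at 35.2 ± 13.7, M1BP at 33.5 ± 7.69, Nelf-E at 26.8 ± 11.6, Cdk9 at 18.2 ± 3.31, CycT at 13.3 ± 5.41 and Trl at 5.82 ± 1.34. Cdk9 was above CycT, and CycT above Trl, in all 6 libraries. TH1 was above Dref, Dref above Spt5, Spt5 above BEAF-32, and Nelf-E above Cdk9 in 5 of 6. M1BP could not be ordered against its neighbours, since BEAF-32 was above it in 2 of 6 and it was above Nelf-E in 4 of 6. In S2 replicate 1, TH1 lay at the 82.4th percentile of tested genes by level per kilobase, M1BP at the 77.6th and Trl at the 37.0th. The lengths count every annotated exon, so a gene that uses only some of them is understated.

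The rest of the transcription machinery was set against S2 replicates 1 and 2 in the same way. Of 110 tested genes in 9 lists (pausing factors, P-TEFb and its partners, elongation factors, promoter-binding and insulator factors, general transcription factors, RNA polymerase II, Integrator and remodellers), 0 rose and 0 fell, with a median log2 fold change of -0.03, where 10.4% of all tested genes were called. These lists hold the 9 genes above. Without S2 replicate 3, Larp7 and CG7928 were called as lower, and without S2 replicate 4 CG7928 was.

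The other subunits of NELF and DSIF were Nelf-A at 0.21, NELF-B at -0.05 and spt4, the small DSIF subunit, at 0.19 on the log2 scale in S2-AbdA over S2 replicates 1 and 2 (adjusted p = 0.956, 0.997 and 0.959, edgeR). Between the S2 pairs, 4 of the 6 genes of that list were higher in replicates 3 and 4, namely TH1, Nelf-E, NELF-B (0.90, adjusted p = 0.0929) and spt4 (1.17, adjusted p = 0.0502), and 0 were lower, where 18.1% of all tested genes were higher. Nelf-A, at -0.56, and Spt5, at -0.38, did not pass the test. NELF-B stood at 39.2, 30.9, 78.5 and 52.7 scaled CPM in S2 and 38.5 and 29.3 in S2-AbdA, and it was lower in S2-AbdA than in S2 replicates 3 and 4 (-0.95, adjusted p = 0.0873), as was spt4 (-0.99, adjusted p = 0.089), where 17.1% of all tested genes were lower. The genes that were higher are the shorter ones: spt4 has 457 bases of exon and NELF-B 2226, while Nelf-A has 4648 and Spt5 3460. With the length offset 3 of the 6 were called as higher, where 1797 of the 9375 tested genes were. Of these TH1 moved from 1.18 to 1.21, NELF-B from 0.90 to 0.91 (adjusted p = 0.0472, edgeR) and Nelf-E from 0.99 to 0.57. The difference of spt4 moved from 1.17 to 0.54 and was no longer called.

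Among the 9 genes of P-TEFb, its inhibitor and the super elongation complex, the smallest p against S2 replicates 1 and 2 belonged to Larp7, a protein of the 7SK particle that holds P-TEFb inactive. It was at 27.4 and 20.1 scaled CPM in S2 replicates 1 and 2 and at 11.03 and 17.9 in S2-AbdA (log2 fold change -0.71, adjusted p = 0.517, edgeR). Hexim, the inhibitor in the same particle, was at 0.23 (adjusted p = 0.927). Between the S2 pairs CycT and Eaf, a partner of the elongation factor ELL, were lower in replicates 3 and 4 (Eaf -1.40, adjusted p = 0.0451, edgeR). These are 2 of the 9, a share near the 18.9% of all tested genes that were lower. In this list 0 genes were higher, where 18.1% of all tested genes were. With the length offset 3 were lower and 0 higher, where 2026 of the 9375 tested genes were lower and 1797 higher.

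In the remaining lists the genes of smallest p in S2-AbdA over S2 replicates 1 and 2 were also not past the test. They were atms, a Paf1 complex subunit (0.33, adjusted p = 0.846), Trf2, a relative of the TATA-binding protein (0.55, adjusted p = 0.660), and CG7928, now ZIPIC, an insulator zinc-finger protein (-0.65, adjusted p = 0.406). TfIIEbeta, of the general factor TFIIE, stood at -0.39 (adjusted p = 0.780), RpII215, the largest polymerase subunit, at 0.46 (adjusted p = 0.794), IntS3 of Integrator at 0.57 (adjusted p = 0.547) and osa, of a SWI/SNF-type remodeller, at 0.44 (adjusted p = 0.787, all edgeR). CG7928 was at 40.8 and 34.01 scaled CPM in S2 replicates 1 and 2, at 21.4 and 20.7 in S2 replicates 3 and 4 and at 21.5 and 26.03 in S2-AbdA. Both S2-AbdA libraries thus lay below S2 replicates 1 and 2 and above S2 replicates 3 and 4. Of the 128 tested genes in these and the target lists that follow, 5 are in the authors' deposited table. That table holds 2122 genes, where the count tables hold 14770. Here 0 of the 128 were called against S2 replicates 1 and 2.

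The other lists were counted between the S2 pairs, where 18.1% of all tested genes were higher and 18.9% lower; whether lists differ was not tested. RNA polymerase II genes had 7 of 11 higher in replicates 3 and 4 and 0 lower, with a median log2 difference of 1.31, or 0.71 and 7 of 11 with the length offset. General transcription factors had 6 of 30 higher, a share near that of all genes, and 0 lower, with a median of 0.45. With the offset 5 were higher and 1 lower, with a median of 0.08. The 11 elongation and histone chaperone genes had 0 called, with a median of -0.15, and 1 higher with the offset. The long RpII215 and RpII140, which encode the largest subunits of the polymerase, were at -0.16 and -0.54 and did not pass the test. Against S2 replicates 3 and 4, 8 of the 11 polymerase genes were lower in S2-AbdA (median -1.38; 7 and -0.77 with the length offset), against 17.1% of all tested genes, and none of them differed from S2 replicates 1 and 2 past the test. These comparisons share libraries, and their counts are given side by side only.

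**Figure D4:**
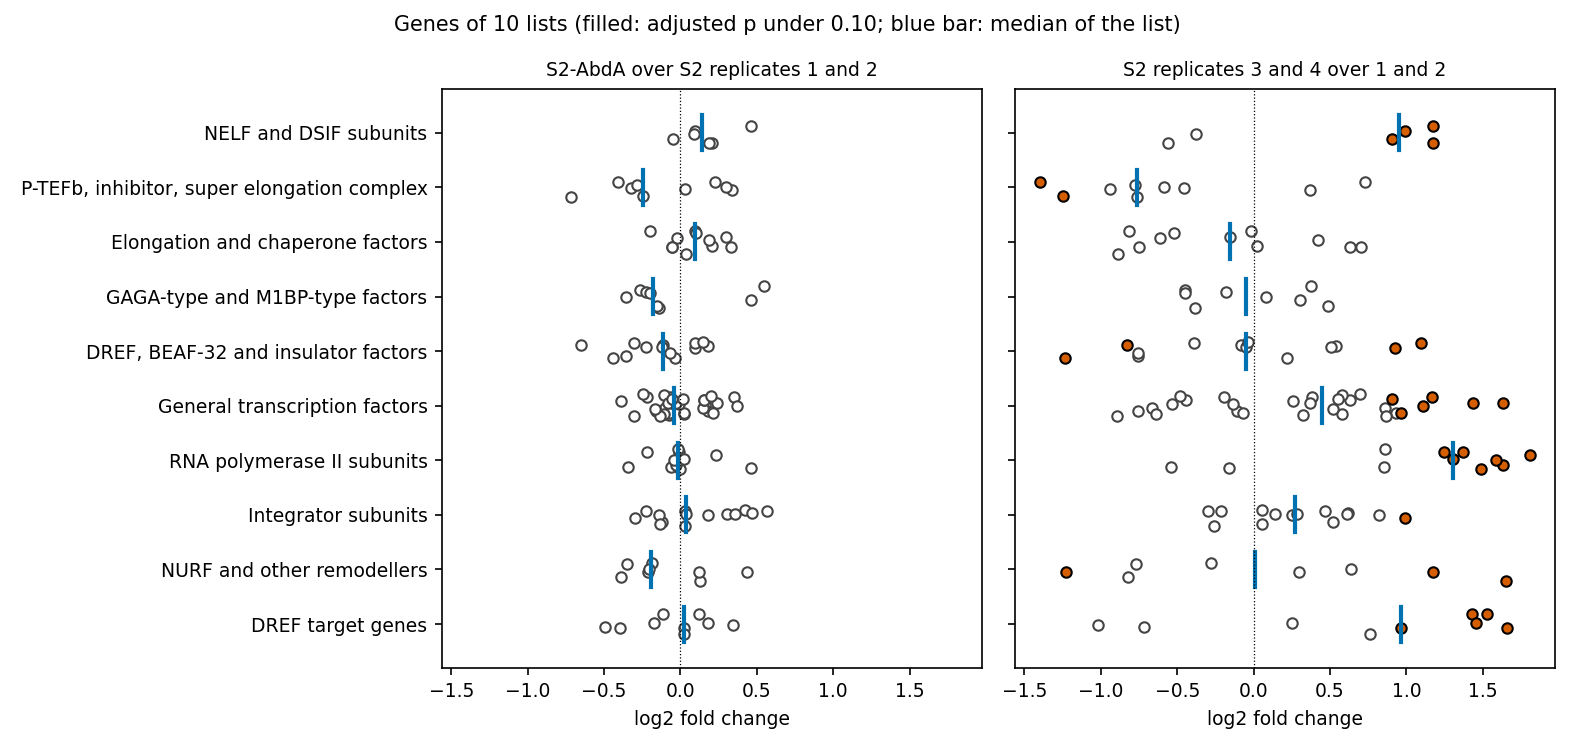
Log2 fold change of the tested genes of 10 lists in S2-AbdA over S2 replicates 1 and 2 (left) and in S2 replicates 3 and 4 over 1 and 2 (right), with filled points for an adjusted p under 0.10 and a bar at each median. On the left no point is filled, and on the right the 7 filled RNA polymerase II genes and 4 filled NELF and DSIF genes lie above zero.

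Genes known as targets of the factors described here were looked at in the same way. Of 9 DREF target genes, DNA replication, cell cycle and mitochondrial genes among them, none was called against S2 replicates 1 and 2 (median 0.02), and DNApol-alpha180, the catalytic subunit of the primase polymerase, had the smallest p (-0.49, adjusted p = 0.809). In S2 replicates 3 and 4, 5 were higher than in replicates 1 and 2 and 0 lower, against 18.1% and 18.9% of all tested genes, and with the length offset 7 were higher and 1, E2f, lower. Dref itself stood at 0.22 (adjusted p = 0.644). Of 9 heat shock genes, long used as models of paused polymerase bound by GAGA factor, none was called against S2 replicates 1 and 2, with a median of 0.92. Hsp68 had the smallest p, at 98.7 and 174.8 scaled CPM in S2 replicates 1 and 2 and 377.6 and 207.6 in S2-AbdA (log2 fold change 1.10, adjusted p = 0.169, edgeR), and DESeq2 called it. Between the S2 pairs all 9 were lower in replicates 3 and 4, at a median of -3.49, while Trl was at -0.45 and M1BP at 0.08. In S2 replicates 3 and 4, however, Hsp70Aa, Hsp70Ba and Hsp70Bc lay between 0 and 0.148 scaled CPM, near the floor. They passed the filter on low counts only through the other libraries, so that they were called lower was in part fixed by the filter. The Hsp70 copies are nearly identical, so their separate counts are uncertain.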

How the data were processed

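The authors deposited raw counts per gene for 6 libraries, not normalized, with a symbol, a gene number and dm3 coordinates per gene. The submitters' processing notes name CASAVA, edgeR and the build dm3, without versions. Aligner, counting tool, annotation release and strand setting: not given in the sources used here. The authors' deposited table of log2 values, p-values and FDRs for 2122 genes, every FDR under 0.10 per the file headers, was used only to look up whether a gene is in it.

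Groups and replicate numbers were taken from the titles. Low counts were filtered by edgeR's filterByExpr with the 3 library sets as groups, libraries were scaled by TMM (factors 0.752 for S2 replicate 3 and 1.00 to 1.10 for the others), and 1 model with a mean per set was fitted to all 6 libraries with edgeR 4.0.16 (robust quasi-likelihood F test, R 4.3.3). Residual degrees of freedom were 3, and the common coefficient of biological variation 0.291. P-values were adjusted over all 9375 genes. Standard errors were obtained from the log2 fold change and F, and the 95% intervals use the gene's total degrees of freedom. DESeq2 1.42.0 was an alternative, as were other scalings, no filter, a threshold of 0.05, a replicate block, leaving out each library, and an offset for length. Exonic lengths came from Ensembl release 115 (assembly BDGP6) by gene number and current symbol, for 14468 of 14770 genes; no coordinate was taken from it. Counts of the 9 genes were 862 to 12487 per library.

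The 9 genes and the 11 lists were chosen with earlier results of these data known. Genes named besides the 9 were abd-A, from each list up to 4 genes of smallest adjusted p past the test against S2 replicates 1 and 2 (where none passed, the 1 of smallest p) and the 3 nearest profiles to M1BP; the other NELF and DSIF genes, Hexim, Eaf, RpII140, E2f and the marker genes were named after their values were seen. Sequences, promoter motifs included, were not used here.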

Additional observations from a re-analysis of the deposited data

Results flagged for a closer look

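Over the 4 S2 libraries, Trl and Spt5 each had 1 library far from the other 3 on the log2 scale. In both it was replicate 3, at 21.2 scaled CPM for Trl, where the others had 41.1 to 43.3, and at 78.4 for Spt5, where the others had 140.1 to 145.6. The gap to the nearest library was 0.925 of the whole range for Trl and 0.938 for Spt5, above Dixon's 95% critical value for 4 samples. Chance gives such a gap in about 5% of groups, and 9 genes were looked at. How many of all tested genes had such a gap was not counted. Between S2 replicates 3 and 4, 31.3% of tested genes differed by more than Trl and 39.6% by more than Spt5. S2 replicate 3 also had the TMM factor farthest from those of the others, at 0.752.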

How the results depend on the processing

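Against S2 replicates 1 and 2, 0 of the 9 genes were called under every alternative run, while the genes called over the whole table, 971, became 1744 with only replicates 1 and 2 of both groups fitted, 46 with all 4 S2 libraries as 1 group, and 658 to 1829 with 1 library left out, most without S2 replicate 3. Genes called in the 11 lists, 0, became 1 with DESeq2's Wald test (Hsp68), 3 without the filter (Hsp68, Hsp26 and Hsp22), 2 with only replicates 1 and 2 (CG7928 and Hsp68), and 0 to 4 with 1 library left out. The run with all 4 S2 libraries as 1 group set S2-AbdA against all 4 of them, not against replicates 1 and 2. With replicate number as a block, fitted to replicates 1 and 2 of both groups only, 1592 genes and 0 of the 9 were called. The same libraries without the block gave the 1744 above. The numbers do not pair the samples by any label. Over the tested genes, the log2 difference between replicates 1 and 2 of S2 had a correlation of -0.01 with that of S2-AbdA. No paired analysis was possible for S2 replicates 3 and 4 because they share no number with the other libraries.

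Against S2 replicates 3 and 4, called genes, 2977, became 1829 at an adjusted p under 0.05 and 1054 to 5992 with 1 library left out. Of the 9 genes, 0 became 1 with DESeq2's size factors (CycT), 2 with its Wald test and 2 without the filter (Nelf-E and CycT), 1 with the length offset (BEAF-32), 2 with that offset and library size alone (CycT and BEAF-32; chosen after seeing the data), and 0 to 6 with 1 library left out. Library size alone gave 1536 higher and 779 lower in place of 1377 and 1600, with the median of all genes at 0.30. Between the S2 pairs, 3470 became 2108 at 0.05 and 1048 to 6354 with 1 library left out, and upper quartile scaling gave 1170 higher and 1981 lower. Of the 9 genes, 4 became 2 with upper quartile scaling, 1 with library size alone (CycT), 1 at 0.05 (TH1), and 0 to 6 with 1 library left out.

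Of 405 values of the 9 genes under alternatives, 344 kept direction and call, 22 lost the call, 18 gained it and 21 changed sign, none of the latter called before or after. With all 4 S2 libraries as 1 group the log2 fold change in S2-AbdA was -0.48 for Nelf-E, -0.25 for TH1, 0.25 for CycT and -0.44 for BEAF-32. On library size alone Dref was at 0.0027 and 0.042 over the S2 pairs and at -0.039 between them. Trl over S2 replicates 3 and 4 was at -0.20 with the length offset and -0.16 with library size alone added. M1BP between the S2 pairs was at -0.063 with upper quartile scaling, -0.17 with library size alone, -0.15 with the length offset and -0.18 with both. With 1 library left out, values in S2-AbdA over S2 replicates 1 and 2 ranged from -0.85 to 0.0085 for M1BP, -0.020 to 0.21 for Nelf-E, -0.066 to 0.016 for Dref and -0.041 to 0.22 for BEAF-32. Over S2 replicates 3 and 4 they ranged from -0.21 to 0.72 for Trl and -0.069 to 0.29 for Cdk9, and for M1BP in one S2 pair over the other from -0.095 to 0.25. The sign changes under all 4 S2 libraries follow from averaging the S2 pairs; the other causes were not tested. The planned promoter motif description was not run. With 2 libraries a group and a spread taken from all 6, changes under about the interval widths given could not be told from none.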
